A study of Bos taurus with 10 samples.

Results

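Haptoglobin mRNA was followed in the livers of late-pregnant dairy cows as 1 gene ID, ENSBTAG00000006354, of 27607 in the deposited table. The ID was chosen as that of the main acute phase protein of cattle and because its level was known to range widely in these libraries, so its levels and its difference between conditions are described here without a test. The 10 libraries came from the livers of Holstein cattle (Bos taurus), sampled 2 weeks before expected calving. Per the labels, 5 libraries are over-conditioned, that is from cows carrying excess body fat, and 5 are normal-conditioned. The labels give no treatment, no age and no body condition score, and all animals share the breed and the time point. They do not state that each library is a separate animal, so the spread between libraries may not be the spread between cows. Where livers are counted or compared below, libraries are meant.

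Haptoglobin is a glycoprotein that hepatocytes secrete into the blood. It binds haemoglobin released from broken red cells, and macrophages take up the complex and recycle its iron. Inflammatory cytokines from macrophages, above all interleukins, raise its transcription in hepatocytes. In cattle it is the acute phase protein most often measured, since it is scarce in the plasma of healthy animals and rises strongly in infection, tissue injury and, in many herds, around calving and with fatty liver.

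The libraries hold reads from transcript 3' ends, next to the poly(A) tail, so a count does not grow with transcript length. Levels are given in CPM, the count divided by the library's total and multiplied by 1000000, and ranks place haptoglobin among all IDs on that scale. Total counts per library ran from 3892292 to 6737548, and 12310 to 13037 IDs had a count. The name haptoglobin comes with the chosen ID. The gene table used here holds no Ensembl IDs, 0 of the 27607 IDs matched it, and no other ID is therefore named, nor were liver or inflammatory cell markers checked. In whole tissue, fewer cells that hold a transcript and less of it per cell cannot be told apart.

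Haptoglobin was among the most abundant liver transcripts in some libraries and a minor one in others. In the over-conditioned libraries it stood at 4948, 403, 2397, 330 and 3064 CPM for replicates 1 to 5. In the normal-conditioned libraries it stood at 111, 13.7, 458, 2034 and 43.7 CPM for replicates 1 to 5. Over-conditioned replicates 1, 3 and 5 and normal-conditioned replicate 4 were high, the only 4 libraries above 1000 CPM. Together they held 90.1% of the haptoglobin CPM summed over the 10 libraries. The 2 libraries under 100 CPM, replicates 2 and 5, were both normal-conditioned.

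**Figure D1:**
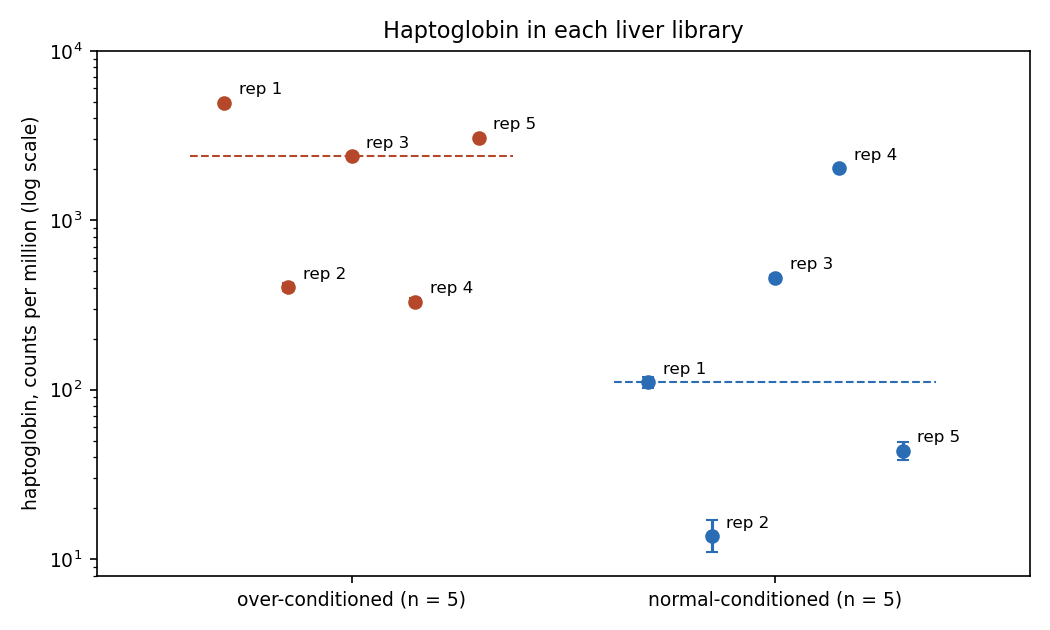
Haptoglobin in CPM (vertical axis, log scale) in each library, by condition (horizontal axis), with exact 95% Poisson intervals as bars and the group median as a dashed line. The over-conditioned libraries run from 330 to 4948 CPM and the normal-conditioned libraries from 13.7 to 2034 CPM, so the groups overlap.

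The differences between libraries were far larger than counting error. The lowest library, normal-conditioned replicate 2, rested on 85 haptoglobin counts, and its exact 95% Poisson interval ran from 10.97 to 16.98 CPM. The highest, over-conditioned replicate 1, rested on 21481 counts, with an interval from 4882 to 5014 CPM. When the 10 libraries were ordered by level, 0 pairs of neighbours had overlapping intervals, and the closest were over-conditioned replicate 2, at 384 to 424 CPM, and normal-conditioned replicate 3, at 439 to 477 CPM. These intervals cover counting error only. The order of the 10 libraries was the same after scaling by the trimmed mean of M values (TMM) or by DESeq2 size factors.

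On the log2 scale the levels spread over 8.44 units. The widest gap between neighbours was 2.15 units, between normal-conditioned replicate 3 at 458 CPM and normal-conditioned replicate 4 at 2034 CPM. The libraries thus formed a graded series with its widest step below the 4 highest. Lower libraries were also far apart. Normal-conditioned replicates 2, 5 and 1 and over-conditioned replicate 4 stood at 3.83, 5.47, 6.80 and 8.37 log2 CPM.

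The place of haptoglobin in the liver transcriptome moved with these levels. In over-conditioned replicate 1 it was the transcript of rank 20, with 0.495% of all counts. In the same condition it ranked 36 in replicate 5, 46 in replicate 3, 314 in replicate 2 and 377 in replicate 4. It was therefore among the 500 most abundant IDs in all 5 over-conditioned libraries and among the top 100 in 3 of them. In the normal-conditioned libraries it ranked 63 in replicate 4, 275 in replicate 3, 909 in replicate 1, 2143 in replicate 5 and 4294 in replicate 2. Only 2 of these 5 placed it among the top 500, and 1 among the top 100. By its mean CPM over all libraries it ranked 96, a place that describes none of the single livers well, since its rank ran from 20 to 4294.

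**Figure D2:**
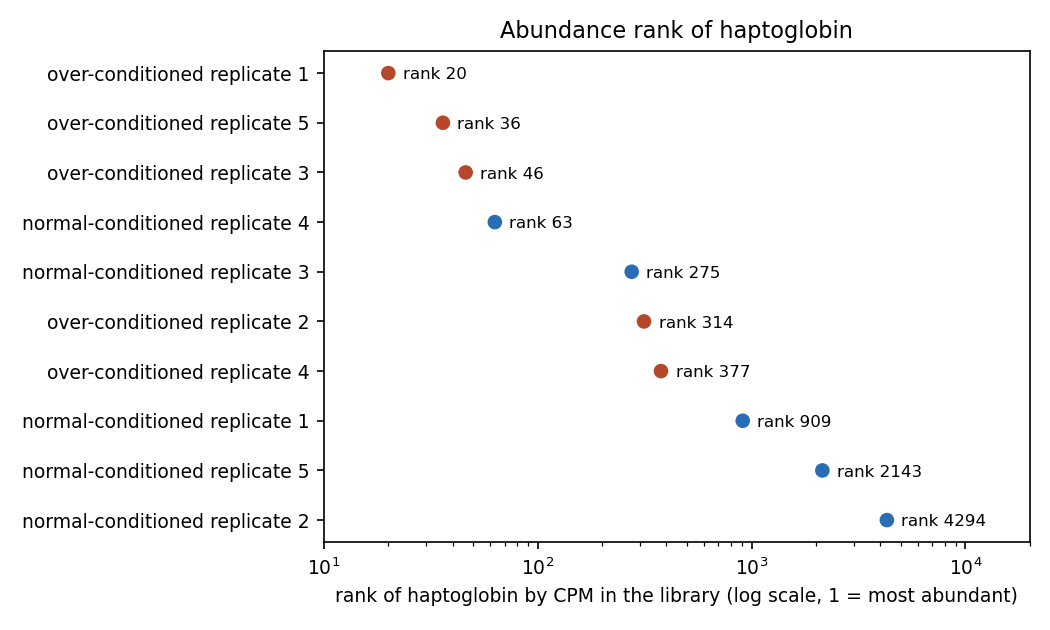
Rank of haptoglobin by CPM among all IDs (horizontal axis, log scale, with 1 as the most abundant) in each library (vertical axis), coloured red for over-conditioned and blue for normal-conditioned. The rank runs from 20 in over-conditioned replicate 1 to 4294 in normal-conditioned replicate 2.

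Between conditions, the over-conditioned libraries lay higher as a group but with overlap. The over-conditioned median of 2397 CPM was 21.6 times the normal-conditioned median of 111 CPM. The means were 2228 ± 1940 and 532 ± 858 CPM (SD, n = 5 each, in the same order), a ratio of 4.19. Geometric means were 1372 and 146 CPM, a ratio of 9.42, or a log2 difference of 3.24. All 5 over-conditioned libraries were above the normal-conditioned median, and 0 of 5 normal-conditioned libraries were above the over-conditioned median. Of the 25 pairs of 1 over-conditioned and 1 normal-conditioned library, the over-conditioned library was higher in 21. The exceptions were over-conditioned replicates 2 and 4, each below normal-conditioned replicates 3 and 4.

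How large the difference appears depended on single libraries. Without normal-conditioned replicate 4 the ratio of means was 14.2, that of geometric means 18.2 and that of medians 31.0. The ratio of medians was also 31.0 without normal-conditioned replicate 3. Without normal-conditioned replicate 2 the ratio of geometric means was 5.27 and that of medians 8.43, and the ratio of medians was also 8.43 without normal-conditioned replicate 5 and 9.56 without normal-conditioned replicate 1. Without over-conditioned replicate 1 or 5 the ratio of medians was 12.6. Over-conditioned replicate 2 lay apart from the others on the first principal component of all other genes (-45.8 against -13.0 to 15.7). Leaving it out gave a ratio of medians of 24.6 and of geometric means of 12.8. Leaving out over-conditioned replicate 4 instead gave much the same, 24.6 and 13.4. The numbers in the library names run mostly with the condition: the over-conditioned libraries carry numbers 1, 2, 3, 4 and 6 and the normal-conditioned ones 5, 7, 8, 9 and 10. The labels do not say what the numbers mean, and a difference between conditions and one along these numbers cannot be told apart.

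The spread within each condition was wide beside the difference between them. The SD of log2 CPM was 1.78 among over-conditioned and 2.81 among normal-conditioned livers (n = 5 each), 2.35 when pooled, and the group means differed by 3.24. Over-conditioned libraries ranged over 15.0-fold and normal-conditioned libraries over 148-fold. Libraries of the same label thus differed in haptoglobin mRNA by more than 1 order of magnitude.

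Few abundant liver transcripts varied like this. Across all 10 libraries haptoglobin ranged over 360-fold. Among the 1019 IDs at a mean of 100 CPM or more, the median range was 1.75-fold and 68.1% stayed under 2-fold. Haptoglobin had the second widest range, behind an ID with 0 counts in 1 library. By the ratio of the second highest to the second lowest library, which single extreme libraries do not set, haptoglobin came first at 70.1-fold, where the median ID stood at 1.43-fold. Its SD of log2 CPM was 2.80, also the largest, against a median of 0.25. Within conditions its pooled SD placed 2 among the 1019, and its range placed 4 among over-conditioned and 2 among normal-conditioned libraries. The ratio of its group medians was the largest of these IDs too. Since haptoglobin was chosen for this range, these places describe it and test nothing.

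**Figure D3:**
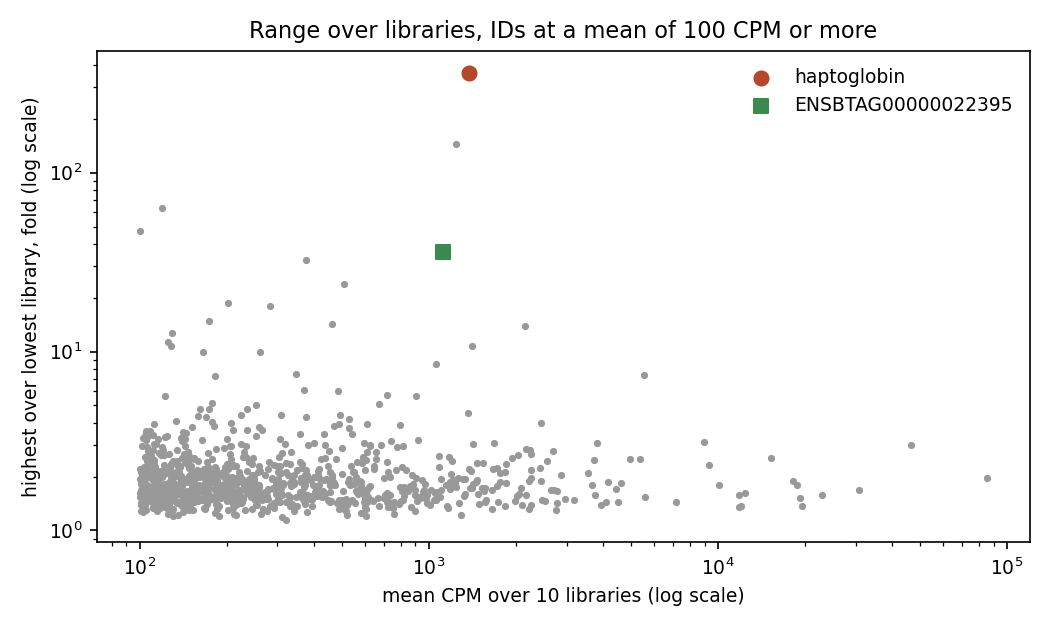
Highest over lowest library in fold (vertical axis, log scale) against mean CPM (horizontal axis, log scale) for the IDs at a mean of 100 CPM or more, without the ID that has a library at 0 counts. Haptoglobin stands at 360-fold and ENSBTAG00000022395 at 36.1-fold, while most IDs lie under 2-fold.

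Measures of the whole library were set beside log2 haptoglobin CPM to see whether depth or library make-up moved with it, a set of 6 relations chosen after the levels were known. Total counts had a Pearson r of -0.14 (permutation p = 0.698, adjusted p = 0.838) and a Spearman rho of -0.042 (permutation p = 0.917, adjusted p = 0.919) over the 10 libraries, and r was 0.14 without the 2 libraries farthest from the median total. The number of IDs detected had an r of 0.053 (permutation p = 0.886, adjusted p = 0.886), a rho of -0.042 (permutation p = 0.919, adjusted p = 0.919) and an r of 0.088 without its 2 farthest libraries. The share of counts in the 10 most abundant IDs had an r of 0.23 (permutation p = 0.531, adjusted p = 0.796) and a rho of 0.32 (permutation p = 0.370, adjusted p = 0.555), with an r of 0.14 without its 2 farthest libraries. None of these 3 passed the threshold.

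The broad expression profile without haptoglobin gave the strongest of the 6 relations. The second principal component had an r of 0.75 (permutation p = 0.0147, adjusted p = 0.0882) and a rho of 0.67 (permutation p = 0.0397, adjusted p = 0.199) with log2 haptoglobin, and r was 0.59 without its 2 farthest libraries. It did not pass after adjustment. The 4 livers with most haptoglobin scored from 9.12 to 23.9 on it, but over-conditioned replicate 4, at 330 CPM, scored 13.6 as well, and the other 5 libraries scored below 0. This component also ran with the condition. Over-conditioned replicates 1 to 5 scored 23.9, -14.6, 10.4, 13.6 and 13.8. Normal-conditioned replicates 1 to 5 scored -10.7, -6.99, -13.4, 9.12 and -25.2. The relations were taken over all 10 libraries without a condition term, and a relation within conditions was not tested. The first component had an r of -0.36 (permutation p = 0.325, adjusted p = 0.650) and a rho of -0.61 (permutation p = 0.0664, adjusted p = 0.199). Its r was -0.72 without its 2 farthest libraries, over-conditioned replicate 2 among them. The number in the library name had an r of -0.43 (permutation p = 0.212, adjusted p = 0.636) and a rho of -0.43 (permutation p = 0.219, adjusted p = 0.438), with an r of -0.050 without its 2 farthest libraries. All permutation tests were two-sided, with 100000 permutations and Benjamini-Hochberg adjustment over the 6 relations.

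The next question was which other transcripts followed haptoglobin from library to library. Each of the other 9161 IDs that passed the filter on low counts was fitted on log2 haptoglobin CPM, with the condition as a term so that the slope is taken within conditions. In edgeR's quasi-likelihood test 0 of the 9161 had an adjusted p under 0.05 (0% higher and 0% lower), with 0.124 as the lowest value. An unadjusted p under 0.05 was reached by 423 IDs, or 4.62%, where 458 are expected with no relation. Of these, 215 had a positive and 208 a negative slope. Within the conditions haptoglobin ranged over 15.0-fold in over-conditioned and 148-fold in normal-conditioned livers. Other tools gave more calls on the same libraries: limma-voom called 1 and DESeq2 12, of which 7 had a positive and 5 a negative slope. Without the condition term, where the slope also takes in the difference between conditions, edgeR called 1 and 743 IDs had an unadjusted p under 0.05, 407 with a positive and 336 with a negative slope, against the same 458. Between the conditions themselves edgeR called 0 of 9162 IDs (0%), with 692 at an unadjusted p under 0.05, and DESeq2 called 23 on the same genes. Haptoglobin is among these 9162. It was chosen for its range in these libraries, so these counts are no test of it.

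The IDs with the pattern most like haptoglobin were sought by the Pearson r of log2 CPM over the 10 libraries, among 5352 IDs at a mean of 10 CPM or more. The 5 highest had r from 0.90 to 0.93 and rho from 0.76 to 0.96, and r from 0.81 to 0.94 without the libraries with the highest and the lowest log2 haptoglobin. The median r over all 5352 was -0.00043, and 49.98% were positive. These r values were picked from all 5352 and share libraries and depth, so they are descriptions with no p. They were taken without a condition term, so they also take in the difference between conditions. The first 2 are given by ID.

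ENSBTAG00000022395 is an abundant transcript, rank 120 by mean CPM, with the widest range of the IDs given besides haptoglobin. In over-conditioned replicates 1 to 5 it stood at 2813, 281, 2599, 895 and 1420 CPM. In normal-conditioned replicates 1 to 5 it stood at 648, 78.0, 555, 1689 and 251 CPM. The 4 livers highest in haptoglobin were also the 4 highest in this transcript, and normal-conditioned replicate 2 was the lowest in both. The conditions overlapped, with 1602 ± 1089 CPM for the over-conditioned and 644 ± 628 CPM for the normal-conditioned livers (mean ± SD, n = 5 each).

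Over the 10 libraries ENSBTAG00000022395 had an r of 0.92 and a rho of 0.87 with haptoglobin, and an r of 0.82 without over-conditioned replicate 1 and normal-conditioned replicate 2. Its range of 36.1-fold placed 6 among the 1019 abundant IDs. In the fit with condition its slope was 0.56 in log2 CPM per doubling of haptoglobin (SE 0.085). This was the smallest p of all IDs, and it did not pass after adjustment in edgeR (adjusted p = 0.124). It passed in edgeR without the condition term (adjusted p = 0.0132), without the filter on low counts (adjusted p = 0.00166) and without normal-conditioned replicate 1 (adjusted p = 0.0202). It also passed in limma-voom (adjusted p = 0.0382) and DESeq2 (adjusted p = 0.000179). It did not pass in the other 14 of 19 alternatives. Among these, the slope was 0.38 with the replicate block (edgeR adjusted p = 0.310) and 0.49 without the 2 libraries farthest from the haptoglobin median (edgeR adjusted p = 0.714), and with the rank of haptoglobin in place of its level the adjusted p was 0.339. All these fits reuse the same libraries. The slope lay between 0.50 and 0.61 when any single library was left out, with edgeR adjusted p from 0.0202 to 0.617.

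**Figure D4:**
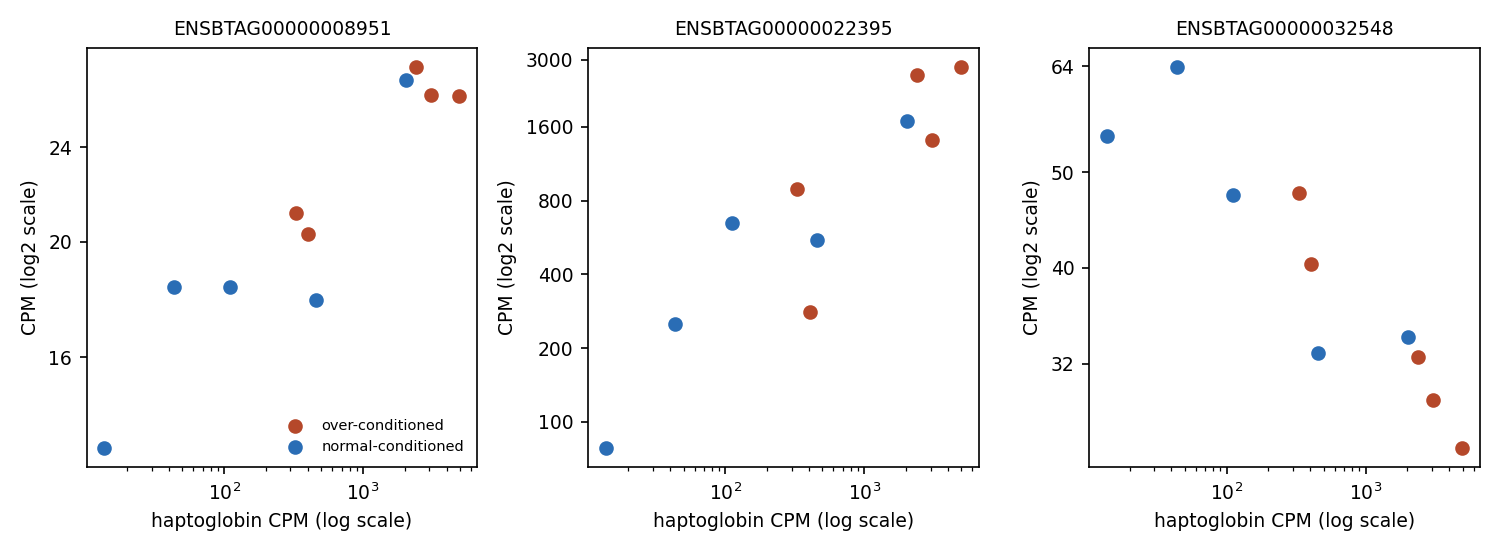
CPM of 3 IDs (vertical axes, log2 scale) against haptoglobin CPM (horizontal axes, log scale) in the 10 libraries, red for over-conditioned and blue for normal-conditioned. ENSBTAG00000022395 lies between 78.0 and 2813 CPM and ENSBTAG00000008951 between 13.4 and 28.0 CPM, both highest in the 4 livers with most haptoglobin, while ENSBTAG00000032548, between 26.3 and 63.9 CPM, runs the other way.

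ENSBTAG00000008951 had the highest r, 0.93, with a rho of 0.76 and an r of 0.88 without the highest and lowest haptoglobin libraries. It is a transcript of low level and narrow range. In over-conditioned replicates 1 to 5 it stood at 26.5, 20.3, 28.0, 21.1 and 26.6 CPM, and in normal-conditioned replicates 1 to 5 at 18.3, 13.4, 17.8, 27.4 and 18.3 CPM. The 4 livers highest in haptoglobin again held its 4 highest values, from 26.5 to 28.0 CPM, while the whole range was 2.09-fold. Its fitted slope was 0.12 per doubling of haptoglobin (SE 0.033, edgeR adjusted p = 0.665), which did not pass.

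ENSBTAG00000032548 had the most negative r, -0.92, with a rho of -0.96, and was added after its values were seen. It stood at 26.3, 40.3, 32.5, 47.7 and 29.4 CPM in over-conditioned replicates 1 to 5 and at 47.4, 54.4, 32.8, 34.1 and 63.9 CPM in normal-conditioned replicates 1 to 5. It was lowest in over-conditioned replicate 1, where haptoglobin was highest, and its 2 highest values were in the 2 livers with least haptoglobin. Its r was -0.92 without the highest and lowest haptoglobin libraries too. The fitted slope was -0.14 per doubling (SE 0.031), which did not pass in edgeR (adjusted p = 0.382) and passed in DESeq2 (adjusted p = 0.0307).

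**Figure D5:**
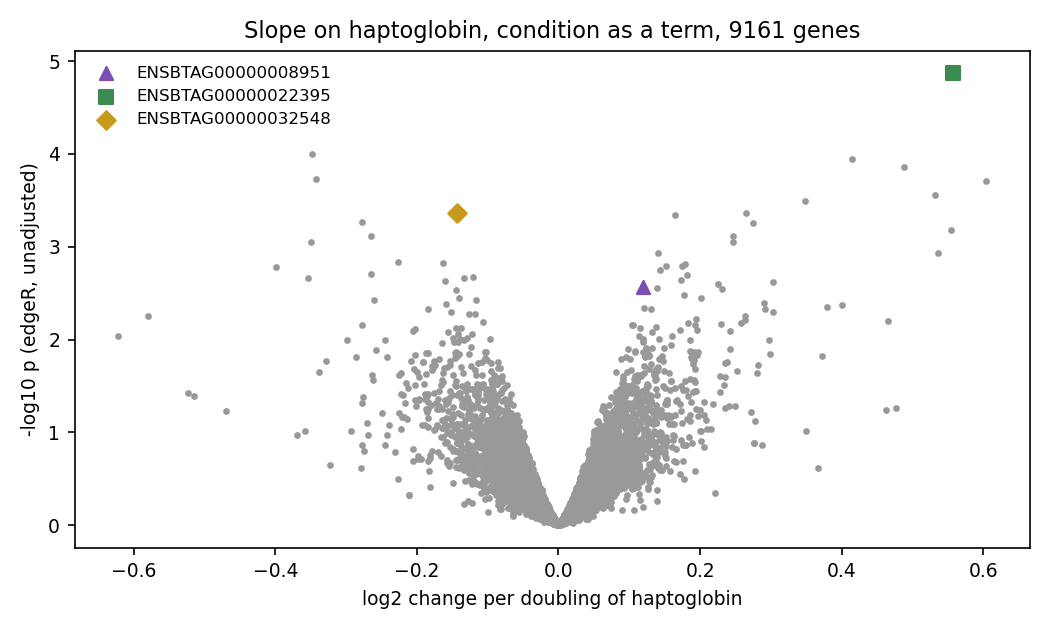
The -log10 of the unadjusted edgeR p (vertical axis) against the log2 change per doubling of haptoglobin (horizontal axis) for the 9161 other IDs tested, with condition as a term. ENSBTAG00000022395, at a slope of 0.56, has the smallest p, and none of the IDs passes after adjustment.

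Other transcripts of wide range followed haptoglobin in some cases and not in others. Besides haptoglobin, 6 abundant IDs ranged over more than 32-fold, and their r with haptoglobin ran from -0.17 to 0.92. An r above 0.7 was seen in 2 of these 6, ENSBTAG00000022395 among them, and in 29 (2.87%) of the 1012 other IDs at a mean of 100 CPM or more. These are counts with no test, and the r values were again taken without a condition term.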

How the data were processed

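Per the labels' protocols, RNA of 10 liver libraries was prepared with the QuantSeq forward kit and read as single 75-base reads. STAR 2.6.0c, RSEM 1.3.1 and cutadapt 1.18, and the builds bosTau9 and ARS-UCD1.2, are named in the submitters' processing notes, without roles. The deposited values are raw whole-number counts by Ensembl ID, not normalised. How multi-gene reads were handled is not stated.

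CPM used column totals, and log2 CPM a prior of 0.5 CPM. Haptoglobin ranks counted IDs with a higher CPM. Tests used edgeR 4.0.16 in R 4.3.3: filterByExpr (minimum count 10, minimum total 15), TMM, the quasi-likelihood F-test and Benjamini-Hochberg adjustment at 0.05. Slopes were fitted on centred log2 haptoglobin CPM with condition as a term, haptoglobin itself left out. Standard errors come from the estimate and F. DESeq2 1.42.0 and limma 3.58.1 served as alternatives. Principal components used TMM log2 CPM (prior count 2). The fits were also run on simulated data, from which no detectable effect size is given here.

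Haptoglobin, the lists and the tests were chosen with earlier results of these data known. The rule for named genes took the IDs with the highest r at a mean of 10 CPM or more, and at most 2 IDs in each direction where no symbol exists. The parts that draw on the 13 lists of acute phase, signalling and cell type genes need symbols and were not used. The part on IDs that pass in the slope fit gave 0 in edgeR. The IDs next to haptoglobin in abundance, also part of the rule, are not given here. No haptoglobin sequence was used here.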

Additional observations from a re-analysis of the deposited data

Results flagged for a closer look

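Haptoglobin in normal-conditioned replicate 4, at 2034 CPM, was separated from the next highest normal-conditioned library, at 458 CPM, by 0.780 of the group's whole range, where 0.71 is the mark used to single out a library among 5. This describes the spacing and tests nothing, since haptoglobin was chosen for its wide range in these libraries. On the log2 scale the gap was 0.30 of the range, under the mark. It was the 1 such gap in 10 groups of values examined, which come from the same libraries. A chance rate of about 1 in 20 goes with this mark only for a single unselected group of normally distributed values. Normal-conditioned haptoglobin CPM was skewed, with a mean of 532 and a median of 111, so that rate is not applied here.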

How the results depend on the processing

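The log2 difference in haptoglobin between the conditions, 3.24, kept its direction in all 12 alternatives and ran from 2.40 to 4.19 without single libraries. Leaving out 1 of 5 libraries moves a group mean by less than that group's SD, here 1.78 or 2.81. It could therefore not have reversed a difference of 3.24, and the kept direction is no evidence of robustness. TMM-scaled totals and DESeq2 size factors changed only the scaling, and each gave 3.18. The place of haptoglobin by range, 2, became 4 among IDs at a mean of 50 CPM or more, and 1 by the SD of log2 CPM or by the second highest over the second lowest library. Without single libraries, an alternative added after seeing the data, it ran from 1 to 3, with 1 without normal-conditioned replicate 4.

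The count of IDs that follow haptoglobin, 0 in edgeR, was 11 without the filter on low counts, 12 with DESeq2, 1 with limma-voom, 1 without the condition term and 1 without the 2 libraries farthest from the haptoglobin median. Without single libraries it ran from 0 to 1, with 1 without over-conditioned replicate 5, normal-conditioned replicate 1 or normal-conditioned replicate 2. The 1 call was not always the same ID. It was ENSBTAG00000022395 in limma-voom, without the condition term and without normal-conditioned replicate 1. That ID did not pass without over-conditioned replicate 5, normal-conditioned replicate 2 or the 2 farthest libraries (edgeR adjusted p = 0.0576, 0.434 and 0.714). The count between conditions, also 0, was 23 with DESeq2 and 0 to 1 without single libraries, with 1 without normal-conditioned replicate 1. Haptoglobin was among the IDs tested between conditions, and its own result there is not given. The cause was not tested. The slopes of the 3 IDs given kept their sign in all 19 alternatives each.

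With the replicate block, 0 IDs followed haptoglobin and 0 differed between conditions. Same-numbered libraries correlated in their deviations at -0.22 to -0.0014. Differently numbered libraries were not set beside them, so these values do not settle whether the numbers mark pairs. The tests of gene lists were not run, for want of symbols. With 5 libraries a group and the spread of haptoglobin between them, precision is limited by the libraries and not by its counts, which are 85 or more in each.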
